A study of Mus musculus with 6 samples.

Results

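The transcripts described here are noncoding genes that GENCODE vM21 annotates as antisense, meaning that they lie across or inside another gene on the opposite DNA strand. Members were the autosomal genes of this type whose mean over the 6 libraries was 1 CPM or more (CPM is the count divided by the library's total and scaled to a fixed library size). Of 46078 genes in the deposited tables, 2226 were of the antisense type, 2181 of these were autosomal, and 113 met the limit. Members were thus chosen by their mean level over all 6 libraries, so levels are given as a description. The rule does not use the comparison between groups, but a mean can be reached through 1 group alone. It was also set with earlier results of these data known.

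Total RNA from mice was sequenced as 3 libraries of the group JMML, a model of the childhood myeloid leukemia of that name (juvenile myelomonocytic leukemia), and 3 of the control group WT. The title of the series speaks of sustained fetal blood formation and of leukemia in young mice. The labels give no tissue, age, strain, altered gene, allele or treatment for either group. Nor do they state that each library is a different animal, and the p-values reflect only the variation among these 6 libraries, which may be technical.

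Antisense transcripts can act on the gene they face by sharing its start region, by pairing with its RNA, or by keeping one parental copy silent in cis. Best known is Kcnq1ot1, which begins inside Kcnq1 on the paternal chromosome and silences neighbouring genes there. Many others have no assigned role. Because each shares DNA with a second gene, the strand setting used in counting matters.

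Total counts were 91976512 to 108395459 in JMML libraries and 47096464 to 61656272 in WT libraries. Markers of several blood lineages moved with the group. Of 20 red cell markers, 16 passed the edgeR test at an adjusted p under 0.05 and all 16 were lower, and the list summed to 707 to 2553 CPM in JMML libraries and 4313 to 6003 CPM in WT libraries. Of 25 B cell markers, 21 were lower and 1 was higher, with sums of 176 to 205 CPM in JMML libraries and 490 to 1194 CPM in WT libraries. Of 20 neutrophil markers, 9 were higher, with sums of 22527 to 32158 CPM in JMML libraries and 12995 to 22093 CPM in WT libraries. Monocyte and macrophage markers (12 higher and 3 lower of 25) summed to 3390 to 4580 CPM in JMML libraries and 2248 to 2768 CPM in WT libraries. Every marker of these 4 lists had a count in at least 1 library. Among other lists, T and NK cell markers had 0 higher and 16 lower of 26, and platelet and megakaryocyte markers 1 and 15 of 18. Endothelial and stromal markers had 0 higher and 12 lower of 21, and dendritic cell and MHC class II markers 11 and 3 of 18. The platelet and the endothelial sums overlapped between groups. In bulk RNA, more cells of a type and more RNA per cell cannot be told apart, and the part of cell makeup in the results on antisense genes was not tested. The identifiers of JMML replicates 1 and 2 carry the letter F and those of the other 4 libraries the letter M, and JMML replicate 3 and WT replicate 3 share an identifier prefix.

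Of the 113 members, 108 overlapped a protein-coding gene on the other strand, called the partner here, and 5 overlapped none. Pairs were divided by arrangement. In 39 pairs the 5′ ends overlapped (head-to-head), in 24 the 3′ ends overlapped (tail-to-tail), in 35 the member lay inside the partner's span and in 10 it spanned the partner. Exons of member and partner shared bases in 88 pairs, and the median overlap was 10.4% of the member's exon bases. Pi4kb was the partner of 2 members, so there were 107 distinct partners. Single-exon genes made up 27 of the members.

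Promoter sequence is shown for 3 members that were called different between groups and whose start is placed alike in both annotations: the transcript with the largest increase, the imprinted transcript with the highest count among the called, and the transcript called together with its partner. Each is the window of 250 bases before to 50 after the RefSeq start, 5′ to 3′ on the gene's strand in GRCm38.p6, and the RefSeq start lay 45, 2 and 28 bases away from the GENCODE start. Slc36a3os is at chr11:55136749-55137048 (plus strand), Kcnq1ot1 at chr7:143296498-143296797 (minus strand) and Gm26782 at chr14:50870046-50870345 (plus strand). Capitals mark matches to the searched motifs.
Slc36a3os: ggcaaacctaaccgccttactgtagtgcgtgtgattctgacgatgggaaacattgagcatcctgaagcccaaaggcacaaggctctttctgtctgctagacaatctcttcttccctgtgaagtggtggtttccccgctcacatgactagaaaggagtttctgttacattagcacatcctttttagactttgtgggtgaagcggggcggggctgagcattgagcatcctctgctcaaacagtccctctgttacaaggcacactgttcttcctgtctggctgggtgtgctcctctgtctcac
Kcnq1ot1: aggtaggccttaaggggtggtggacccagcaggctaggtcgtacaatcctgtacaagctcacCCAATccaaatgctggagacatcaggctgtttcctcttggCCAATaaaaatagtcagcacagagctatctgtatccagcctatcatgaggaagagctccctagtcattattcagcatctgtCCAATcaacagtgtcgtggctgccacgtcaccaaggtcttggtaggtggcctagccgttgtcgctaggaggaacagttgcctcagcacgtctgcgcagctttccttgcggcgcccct
Gm26782: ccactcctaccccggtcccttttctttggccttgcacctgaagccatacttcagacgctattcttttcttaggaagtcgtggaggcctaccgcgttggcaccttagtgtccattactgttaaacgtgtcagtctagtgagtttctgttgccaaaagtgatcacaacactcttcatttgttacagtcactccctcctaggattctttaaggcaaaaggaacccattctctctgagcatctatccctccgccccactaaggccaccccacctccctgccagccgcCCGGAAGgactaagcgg

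The Kcnq1ot1 window held the CCAAT box motif 3 times, at 188, 148 and 67 bases before the start. CCAAT, searched on both strands, occurred in 37.36% of 32544 RefSeq promoter windows of the same length. Gm26782 had 1 match to the ETS-type motif CCGGAAG, 34 bases after its start, a motif found in 8.914% of windows. The Slc36a3os window matched none of the 5 motifs searched. The others were the TATA box motif TATAAA, present in 13.57% of windows, the E-box motif CACGTG, present in 7.166%, and the AP-1 motif TGANTCA, present in 7.789%. No window printed here held matches that overlapped each other. CG dinucleotides numbered 6, 9 and 10 in the Slc36a3os, Kcnq1ot1 and Gm26782 windows, against a median of 7 over all windows. The highest count among called members with a window was 30, in 4930513N10Rik, a gene that starts head-to-head with Cnot1, which encodes the scaffold of the CCR4-NOT deadenylase. RefSeq windows were found for 59 of the 113 members and for 6 of the 14 called ones.

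Most members did not pass the test between JMML and WT. In the edgeR quasi-likelihood test over 18097 genes, at a Benjamini-Hochberg adjusted p under 0.05, 5 members were higher and 9 were lower in JMML. That is 12.4% of members, against 26.2% called among all genes tested. By direction, 12.4% of all genes were called higher and 13.8% lower. Among the 88 members sharing exon bases with their partner, 2 were called higher and 9 lower. Among the 20 with a partner but no shared exon bases, 3 were called higher and 0 lower. The part of the strand setting in this was not tested. An unadjusted p under 0.05 was found for 38 of 113 members, against 7400 of the 18097 genes tested. The median log2 fold change of members, JMML over WT, was -0.28, with 74 of 113 below 0, and it was -0.02 over all genes tested. Among genes of 1 CPM or more the median was 0.05 for protein-coding genes, of which 30.5% were called, and -0.31 for the 150 long intergenic noncoding genes, of which 27.3% were called. JMML and WT libraries did not overlap for 51 members (45.1%), 17 with all JMML libraries higher and 34 with all JMML libraries lower, against 47.5% of all genes tested.

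These counts depended on the libraries and on scaling. With library totals in place of TMM scaling 3 members were called higher and 20 lower, against 7.07% and 19.1% of all genes, and that scaling moved the median of all genes by -0.18. Leaving out JMML replicate 1 gave 3 higher and 14 lower (all genes 10.5% and 11%), leaving out JMML replicate 2 gave 2 and 3 (8.19% and 8.12%), and leaving out JMML replicate 3 gave 4 and 5 (9.5% and 8.67%). Without WT replicate 1 there were 3 higher and 4 lower (7.67% and 8.28%), without WT replicate 2 there were 5 and 2 (5.56% and 6.1%), and without WT replicate 3 there were 3 and 6 (9% and 8.69%). With the identifier letter as a covariate 2 were higher and 2 lower (5.35% and 6.91%), and among the 4 libraries with the letter M 1 was higher and 6 were lower (5.02% and 6.44%). Of the 14 called members, Slc36a3os, Gm15964 and Kcnq1ot1 kept their call with that covariate. The median level of members was 2.38 CPM, and 50 lay under 2 CPM, where counts are lowest. The mean was under 1 CPM in JMML for 18 members and under 1 CPM in WT for 6, so these reached the limit mainly through the other group. Among the called members this holds for 5 of the 9 lower ones, Gm37915, Gm15879, Gm12999, Gm26513 and 4930513N10Rik, and for Slc36a3os among the 5 higher ones. At a limit of 2 CPM, 4 members were called higher and 4 lower.

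**Figure D1:**
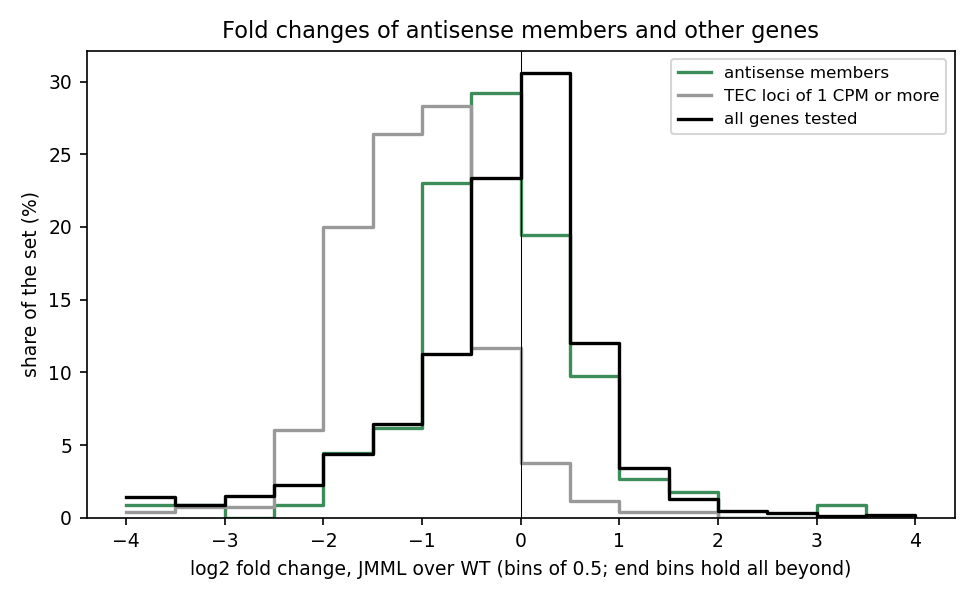
Distribution of log2 fold changes, JMML over WT, for the 113 antisense members, for all genes tested and for TEC loci of 1 CPM or more, as the share of each set per bin of 0.5. The members' median is -0.28, that of all genes is -0.02 and that of TEC loci is -1.08.

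Slc36a3os had the largest increase. The gene (ENSMUSG00000085531, chr11:55137044-55140193, plus strand, 2 exons) lies inside the span of Slc36a3, a member of the proton-coupled amino acid transporter family, without sharing exon bases. Levels were 3.33, 1.65 and 1.84 CPM in JMML replicates 1 to 3 and 0.446, 0.211 and 0.138 CPM in WT replicates 1 to 3. Every JMML library was higher than every WT library, and the mean was reached through JMML alone. The log2 fold change was 3.08 ± 0.52 (SE, n = 3 each, adjusted p = 0.00767), and the call held in all 15 alternative settings. Slc36a3 itself averaged 0.170 CPM over the 6 libraries and was not called (2.08, adjusted p = 0.142).

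Gm20658 was the next largest. It lies inside the span of Vipr2, which encodes a receptor for vasoactive intestinal peptide, without sharing exon bases, on chromosome 12 (116102769 to 116138648, minus strand, 6 exons). Levels were 5.14, 6.44 and 5.81 CPM in JMML libraries and 2.22, 2.40 and 0.929 CPM in WT libraries, with no overlap. Its log2 fold change was 1.65 ± 0.36 (adjusted p = 0.0178), and 1.58 with adjusted p = 0.0508 without JMML replicate 2. Gm15964 overlaps 2 protein-coding genes on the other strand and was paired with Dnajc28, a gene of the DnaJ co-chaperone family, which it spans. Gm15964 rose by 0.96 ± 0.22 (adjusted p = 0.0198). It had 3.90, 4.09 and 4.93 CPM in JMML libraries and 2.09, 2.49 and 2.05 CPM in WT libraries. This call ended without WT replicate 1 (0.98, adjusted p = 0.0562) or WT replicate 3 (0.95, adjusted p = 0.0502).

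Gm26782 starts head-to-head with Tep1, which encodes a protein of the vault and telomerase complexes, and was the only member called together with its tested partner. It had 8.53, 5.88 and 6.40 CPM in JMML libraries and 4.17, 3.35 and 4.61 CPM in WT libraries. The log2 fold change was 0.78 ± 0.23 (adjusted p = 0.0441). Tep1 averaged 105 ± 12.4 CPM in JMML and 58.3 ± 5.13 CPM in WT (SD, n = 3 each), a log2 fold change of 0.85 ± 0.13 (adjusted p = 0.00514). Both genes were higher in every JMML library than in any WT library. The fifth increase, Gm20632 (0.85 ± 0.25, adjusted p = 0.0428), spans the histone gene Hist2h2aa2, which has near-identical copies, so its count is uncertain. Calls of both were fragile: the Gm26782 call ended when any one library was left out (0.62 to 0.92), and the Gm20632 call ended when any one but WT replicate 2 was left out (0.75 to 0.95).

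Kcnq1ot1 (ENSMUSG00000101609) had the highest counts of the called members. It is annotated as 1 exon of 93092 bases inside Kcnq1, which encodes a potassium channel subunit (chr7:143203458-143296549, minus strand). Levels were 78.0, 57.9 and 42.1 CPM in JMML libraries and 133, 205 and 111 CPM in WT libraries, so every JMML library was below every WT library. The log2 fold change was -1.34 ± 0.29 (adjusted p = 0.0164), and the call ended only without JMML replicate 2 (-1.30, adjusted p = 0.0541). Loci of the TEC type, gene models that await experimental evidence, moved the same way: they summed to 497 to 749 CPM in JMML libraries and 1026 to 1748 CPM in WT libraries, and 123 of 265 at 1 CPM or more were called lower and 2 higher. Loci annotated within introns on the sense strand summed to 94.8 to 153 CPM in JMML libraries and 190 to 271 CPM in WT libraries, with 17 of 36 at 1 CPM or more called lower. Their part in the Kcnq1ot1 value was not tested. Kcnq1 itself was low, at 0.256, 0.228 and 0.0220 CPM in JMML libraries and 0.585, 0.441 and 0.774 CPM in WT libraries, and was not called (-1.82, adjusted p = 0.106).

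Nespas, the antisense transcript of the imprinted Gnas locus, is expressed in the mouse from the paternal chromosome across the promoter of the Nesp form of Gnas. It had 3.99, 4.08 and 4.32 CPM in JMML libraries and 10.4, 10.7 and 7.22 CPM in WT libraries, a spread within JMML far below the gap between groups. The log2 fold change was -1.19 ± 0.21 (adjusted p = 0.0083), and the call held when any one library was left out. With the identifier letter as a covariate it was -1.13 (adjusted p = 0.0678), and among libraries with the letter M -1.09 (adjusted p = 0.0822). Gnas, which encodes a stimulatory G protein subunit, averaged 246 ± 56.0 CPM in JMML and 268 ± 12.3 CPM in WT (SD, n = 3 each), a log2 fold change of -0.12 (adjusted p = 0.63).

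**Figure D2:**
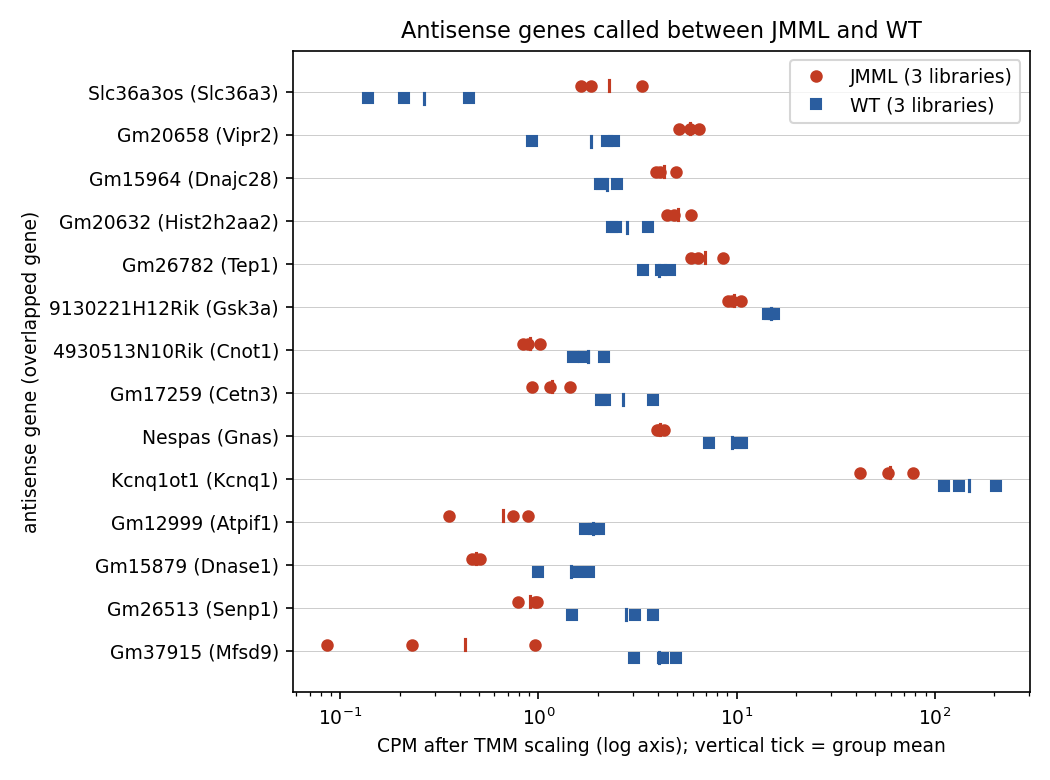
CPM, on a horizontal log axis, of the 14 called antisense members in each library. In each gene's row JMML points (red) lie above WT points (blue), with a tick at each group mean. No called member has JMML and WT libraries that overlap, and Slc36a3os and Gm37915 show the widest gaps.

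The largest decrease was in Gm37915 (chromosome 1, 40771385 to 40785343, plus strand), whose 3′ end overlaps that of Mfsd9, a gene of the major facilitator transporter superfamily. It had 0.964, 0.0856 and 0.231 CPM in JMML libraries and 4.25, 4.96 and 3.04 CPM in WT libraries. JMML libraries were all lower than WT libraries but differed widely among themselves, and the mean of 1 CPM was reached through WT alone. The log2 fold change was -3.27 ± 0.79 (adjusted p = 0.0232), and the call ended without JMML replicate 3 (-2.96, adjusted p = 0.055), WT replicate 1 (-3.20, adjusted p = 0.053) or WT replicate 2 (-3.12, adjusted p = 0.072).

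Gm15879 faces Dnase1, a secreted nuclease that was too low to test, and had 0.464, 0.485 and 0.506 CPM in JMML libraries and 0.9998, 1.80 and 1.57 CPM in WT libraries. JMML libraries were nearly equal and all below WT (-1.58 ± 0.33, adjusted p = 0.015), though without WT replicate 2 the adjusted p was 0.0558 (-1.40). Gm26513 shares the start region of Senp1, a SUMO protease gene. Its levels were 0.988, 0.789 and 0.957 CPM in JMML libraries and 3.78, 3.09 and 1.48 CPM in WT libraries (-1.61 ± 0.38, adjusted p = 0.022). The call ended without JMML replicate 2 (-1.50, adjusted p = 0.0714), WT replicate 1 (-1.27, adjusted p = 0.07) or WT replicate 2 (-1.53, adjusted p = 0.072). All exon bases of Gm12999 lie within exons of Atpif1, the gene for an inhibitor of the mitochondrial ATP synthase. It had 0.891, 0.352 and 0.748 CPM in JMML libraries and 2.02, 1.72 and 1.91 CPM in WT libraries. Atpif1 averaged 134 CPM over the 6 libraries and was not called (-0.23, adjusted p = 0.384).

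Gm12999 fell by 1.51 ± 0.39 on the log2 scale (adjusted p = 0.0278). The call ended when any one library except JMML replicate 1 was left out (-1.18 to -1.59). The other 3 decreases were smaller or lay nearer the threshold. Gm17259 starts head-to-head with the centrin gene Cetn3 (-1.19 ± 0.34, adjusted p = 0.0403). 4930513N10Rik starts head-to-head with Cnot1 (-0.96 ± 0.28, adjusted p = 0.0404). 9130221H12Rik lies inside Gsk3a, a kinase gene (-0.61 ± 0.14, adjusted p = 0.0188). Groups did not overlap in any of the 3, but the calls of Gm17259 (-0.86 to -1.35) and 4930513N10Rik (-0.81 to -1.03) ended when any one library was left out, and that of 9130221H12Rik ended for every library but JMML replicate 1 (-0.55 to -0.60).

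Of the 8 members with the highest mean CPM, Kcnq1ot1 and 9130221H12Rik were called, both lower, and the other 6 were not. Among all genes tested 26.2% were called, 13.8% of them lower and 12.4% higher as shares of all genes. Tug1, a conserved noncoding RNA that starts head-to-head with Morc2a, had 134, 155 and 153 CPM in JMML libraries and 151, 168 and 156 CPM in WT libraries. The groups overlapped and the log2 fold change was -0.11 ± 0.11 (adjusted p = 0.495). Brip1os averaged 97.2 ± 18.3 CPM in JMML and 94.7 ± 2.54 CPM in WT (SD, n = 3 each). Its difference of 0.04 on the log2 scale was smaller than its SE of 0.14. Per kilobase of exon, Tug1 had 15.7, Brip1os 14.8, Rab26os 10.4, Gm15915 9.38 and Kcnq1ot1 1.12 CPM per kb, so the count of Kcnq1ot1 is spread over a long transcript. Gt(ROSA)26Sor, the noncoding gene of the locus widely used for transgene insertion, averaged 9.07 ± 2.35 CPM in JMML and 8.54 ± 1.76 CPM in WT (SD, n = 3 each). In 33 members the level per kilobase was above that of the partner.

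Of the 17 members named as opposite-strand transcripts of a gene (symbols with "os"), 1 was called higher and 0 lower, against 12.4% and 13.8% of all genes tested. In the same edgeR test 6 of the 17 had an unadjusted p under 0.05, against 7400 of 18097 genes tested. Zeb2os runs opposite Zeb2, whose product represses epithelial genes and acts in blood development. In human cells the ZEB2 antisense RNA is known to affect splicing in the 5′ part of ZEB2. Levels of Zeb2os were 6.53, 5.53 and 5.16 CPM in JMML libraries and 3.32, 3.87 and 4.42 CPM in WT libraries, all JMML above all WT (0.57 ± 0.21, adjusted p = 0.0835). Zeb2 averaged the other way, with 186, 190 and 123 CPM in JMML libraries and 205, 258 and 199 CPM in WT libraries (-0.41, adjusted p = 0.159). Neither difference passed the threshold.

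Junos starts head-to-head with Jun, a subunit of the AP-1 transcription factor. It had 2.26, 2.42 and 2.29 CPM in JMML libraries and 1.77, 1.84 and 1.65 CPM in WT libraries, a difference of 0.41 ± 0.22 on the log2 scale (adjusted p = 0.212). Jun rose by 1.55 ± 0.25 (adjusted p = 0.00673), with 86.0, 85.3 and 56.2 CPM in JMML libraries and 19.1, 25.1 and 33.7 CPM in WT libraries. Both genes were higher in every JMML library, with the test passed for Jun alone. The ratio of Junos to Jun differed by -1.15 ± 0.38, which missed the threshold (adjusted p = 0.089).

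Of the 97 distinct partners that could be tested, 11 were higher and 9 lower in JMML (20.6%), against 26.2% of all genes tested and 30.5% of protein-coding genes of 1 CPM or more. Log2 fold changes of member and partner had the same sign about as often as opposite signs. In the 98 pairs with both genes tested, 52 had log2 fold changes of the same sign and 46 of opposite sign. Pearson's r between the 2 log2 fold changes was 0.225 and Spearman's coefficient 0.156 across these 98 pairs. By arrangement, r was 0.391 head-to-head, 0.389 with the member inside the partner, -0.140 tail-to-tail and -0.142 with the member spanning it. Pairs are not independent replicates and both values of a pair come from the same 6 libraries, so these are descriptions. The same sign occurred in 21 of 38 head-to-head pairs, 17 of 33 pairs with the member inside the partner, 9 of 18 tail-to-tail pairs and 5 of 9 pairs with the member spanning the partner. Both genes were called in 1 pair, the member alone in 12, the partner alone in 19 and neither in 66.

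**Figure D3:**
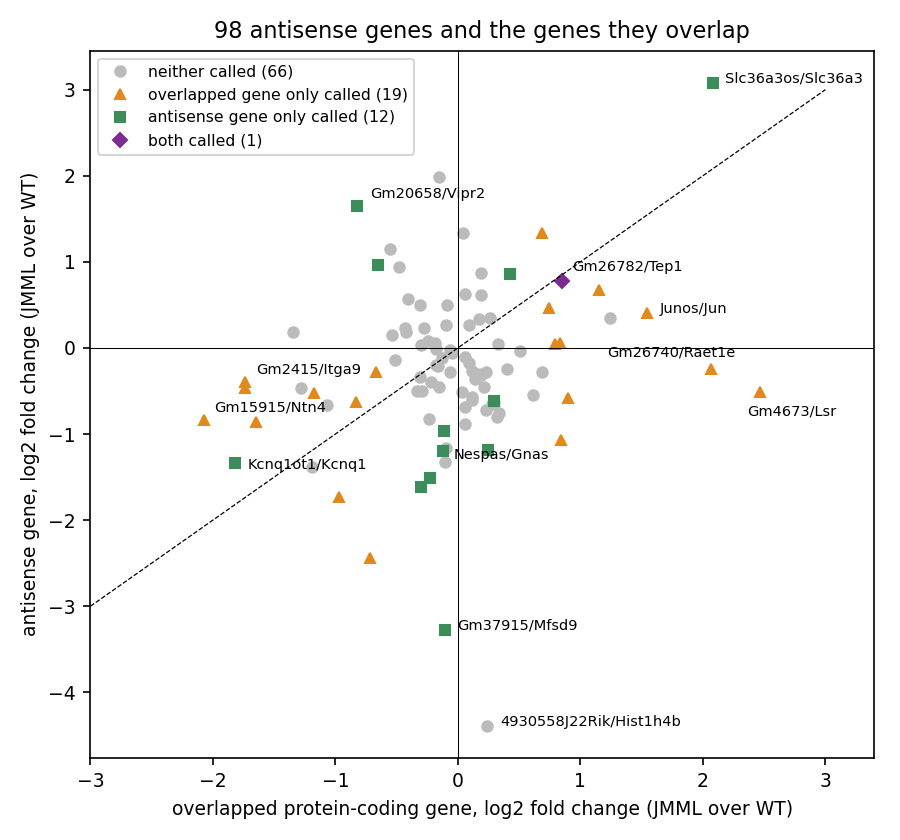
Log2 fold change, JMML over WT, of each antisense member against that of its protein-coding partner, for the 98 pairs with both genes tested; colours give which gene of a pair was called. Points fall on both sides of 0 on each axis, with 52 pairs of the same sign and 46 of opposite sign.

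Among the 19 partners called alone, 10 were higher and 9 lower, and the member had the partner's sign in 15 of the pairs. Increases included Lsr, a lipoprotein receptor gene (2.46 ± 0.36, adjusted p = 0.00511), Raet1e, which encodes a ligand of the NKG2D receptor (2.06 ± 0.32, adjusted p = 0.00603), Zbtb7b, a transcription factor gene (0.84 ± 0.13, adjusted p = 0.00578) and Ptger2, a prostaglandin E2 receptor gene (0.90 ± 0.22, adjusted p = 0.0251). Their antisense members Gm4673, Gm26740, Gm15417 and Gm17173 had log2 fold changes of -0.52, -0.25, 0.06 and -0.58, none called. These examples hold more pairs of opposite sign than the 19 pairs as a whole. Gm13012 and A530040E14Rik, opposite the increased Ece1 and C130026I21Rik, had 0.46 and 0.68, also not called. Decreases included Ntn4, which encodes a netrin (-2.07 ± 0.53, adjusted p = 0.0276), the integrin gene Itga9 (-1.74 ± 0.51, adjusted p = 0.0436), Loxl2, a lysyl oxidase gene (-1.65 ± 0.41, adjusted p = 0.0259), and Srcap, a chromatin remodeller gene (-1.18 ± 0.24, adjusted p = 0.0127). Their members Gm15915, Gm2415, Gm27177 and 1700008J07Rik had -0.84, -0.40, -0.86 and -0.52, also none called. Hmga2, a chromatin protein gene active in fetal blood stem cells, averaged 4.38 ± 0.924 CPM in JMML and 7.79 ± 1.58 CPM in WT (SD, n = 3 each), a log2 fold change of -0.83 ± 0.24 (adjusted p = 0.042). Its antisense member 1700006J14Rik had 2.79, 3.17 and 1.68 CPM in JMML libraries and 4.51, 3.76 and 3.58 CPM in WT libraries (-0.63 ± 0.29, adjusted p = 0.143).

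Whether member and partner differed by the same factor was tested directly. The model took each library as a block and tested the interaction of strand with group over 345 antisense pairs, so library scaling cancels within a pair. The antisense-to-partner ratio was higher in JMML in 3 member pairs and lower in 6, against 2.61% called higher and 7.83% called lower among all 345 pairs. The median log2 difference of the ratio was -0.19 over member pairs and -0.33 over all pairs.

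Gm4673 and Lsr overlap at their 3′ ends on chromosome 7. Gm4673 had 6.44, 5.77 and 3.84 CPM in JMML libraries and 5.77, 10.6 and 6.57 CPM in WT libraries, and the groups overlapped. Lsr had 16.8, 19.5 and 7.94 CPM in JMML libraries and 2.17, 3.35 and 2.51 CPM in WT libraries, with no overlap. The log2 difference of the ratio was -2.89 ± 0.34 (adjusted p = 0.00561), and the call held in all 9 alternative settings of the ratio test. For Gm37915 and Mfsd9 it was -3.63 ± 0.68 (adjusted p = 0.0155), ending only without WT replicate 2 (-3.58, adjusted p = 0.0569). Mfsd9 averaged 5.10 CPM over the 6 libraries and was not called (-0.11). Gm26740 lies inside the annotated span of Raet1e without sharing exon bases. It overlaps 2 protein-coding genes on the other strand, of which only Raet1e was used. Raet1 genes have close copies, so their counts are uncertain. Raet1e levels were 3.66, 2.48 and 2.28 CPM in JMML libraries and 0.815, 0.517 and 0.671 CPM in WT libraries. Their ratio differed by -2.30 ± 0.43 (adjusted p = 0.0155), with calls lost without JMML replicate 2 (-2.43, adjusted p = 0.0508) or WT replicate 2 (-1.96, adjusted p = 0.0528).

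The other lower ratios were Gm38336 to Arhgef4, a guanine nucleotide exchange factor gene (-2.05 ± 0.46), Gm17259 to Cetn3 (-1.36 ± 0.36) and Gm12999 to Atpif1 (-1.34 ± 0.35). The 3 higher ratios were Gm20658 to Vipr2 (2.70 ± 0.60, adjusted p = 0.0292), Gm15964 to Dnajc28 (1.65 ± 0.41, adjusted p = 0.0406) and Gm16104 to Nfic, a transcription factor gene (1.43 ± 0.36, adjusted p = 0.0414). In these 3 pairs every JMML library was above every WT library for the antisense gene. Gm20658 and Gm15964 were called on their own and Gm16104 was not (0.94 ± 0.31, adjusted p = 0.0632). The 3 partners averaged lower in JMML and were not called. Vipr2 had 0.769, 0.979 and 0.286 CPM in JMML libraries and 1.28, 1.21 and 1.12 CPM in WT libraries. Nfic had 28.7, 43.1 and 32.6 CPM in JMML libraries and 52.0, 51.4 and 42.3 CPM in WT libraries. Calls of these 6 pairs were fragile: those of Gm12999, Gm17259 and Gm16104 ended when any one library was left out (-1.10 to -1.53, -1.14 to -1.56 and 1.19 to 1.65). Those of Gm15964 (1.45 to 1.79) and Gm38336 (-1.80 to -2.08) ended for every library but JMML replicate 1, and that of Gm20658 (2.33 to 2.98) ended for JMML replicate 2 and each WT replicate. Leaving out JMML replicate 2, WT replicate 1 or WT replicate 2 left 0 higher ratios called by edgeR (7, 9 and 6 with an unadjusted p under 0.05) and 2, 4 and 1 lower ones. Over all 345 pairs these settings called 0.58%, 1.45% and 0.87% higher and 2.03%, 3.77% and 1.74% lower. Leaving out JMML replicate 3 or WT replicate 3 left 1 higher and 3 lower in each case, against 2.32% and 5.22% of all pairs for the JMML library and 1.45% and 3.48% for the WT library. Leaving out JMML replicate 1 moved neither count (2.61% and 8.12% of all pairs). limma on log2 ratios called 9 higher and 13 lower with a pseudocount of 0.5 CPM (13.6% and 11.6% of all pairs) and 6 and 11 with 0.1 CPM (5.51% and 10.4%). With 0.5 CPM the ratio of Gm37915 was -2.26 and that of Gm12999 was -0.75.

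**Figure D4:**
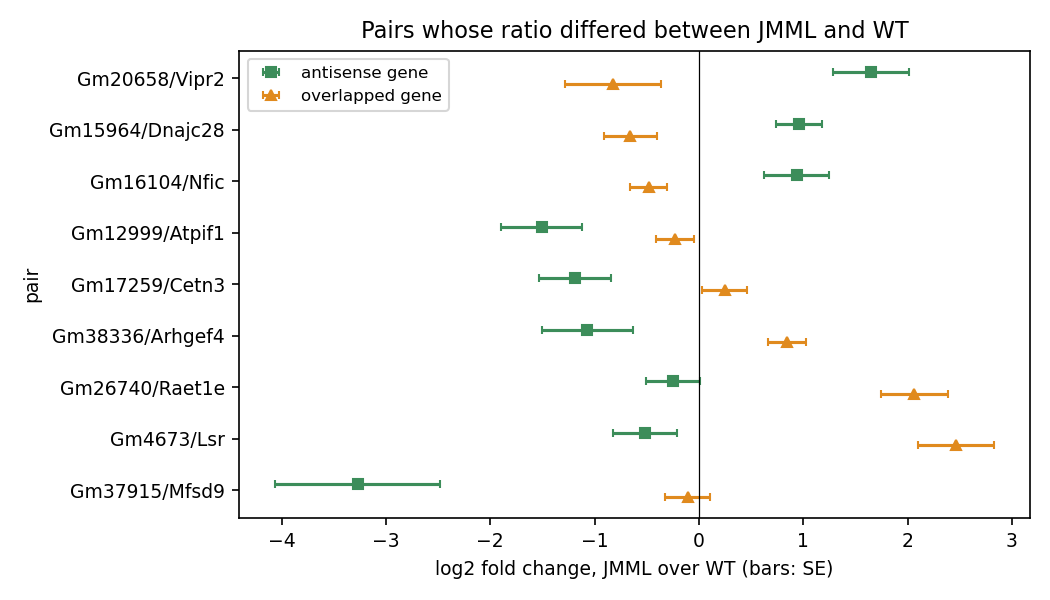
Log2 fold change, JMML over WT, of the antisense gene (green squares) and of its partner (orange triangles) for the 9 member pairs called in the ratio test. Bars give the SE. For Gm20658, Gm15964 and Gm16104 the antisense gene has the higher log2 fold change of the pair, and in the other 6 pairs it has the lower.

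A few members had a wide range over the libraries. In 8 members the highest library exceeded the lowest by 16-fold or more or a library had 0 counts, a limit set after the values were seen. 4732440D04Rik, inside the autophagy gene Rb1cc1, had 364, 4 and 1 counts in JMML libraries and 262, 310 and 1 counts in WT libraries. High and low libraries thus occurred in both groups. C330011M18Rik, which starts head-to-head with the transcription factor gene Rfx1, had 163, 244 and 215 counts in JMML libraries and 0, 0 and 98 counts in WT libraries. 4930558J22Rik, which spans the histone gene Hist1h4b, had 6, 17 and 11 counts in JMML libraries and 476, 9 and 6 counts in WT libraries, so that its level rests on WT replicate 1. Dnm3os, inside Dnm3 and host of the miR-199a and miR-214 genes, had 87, 146 and 29 counts in JMML libraries and 8, 86 and 121 counts in WT libraries. None of these 4 was called. The other 4 past this limit were Gm11837 and Gm14198, not called, and Gm37915 and Slc36a3os, both called. JMML and WT libraries did not overlap for Gm37915 and Slc36a3os, nor for Gm14198 and C330011M18Rik, which were not called.

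**Figure D5:**
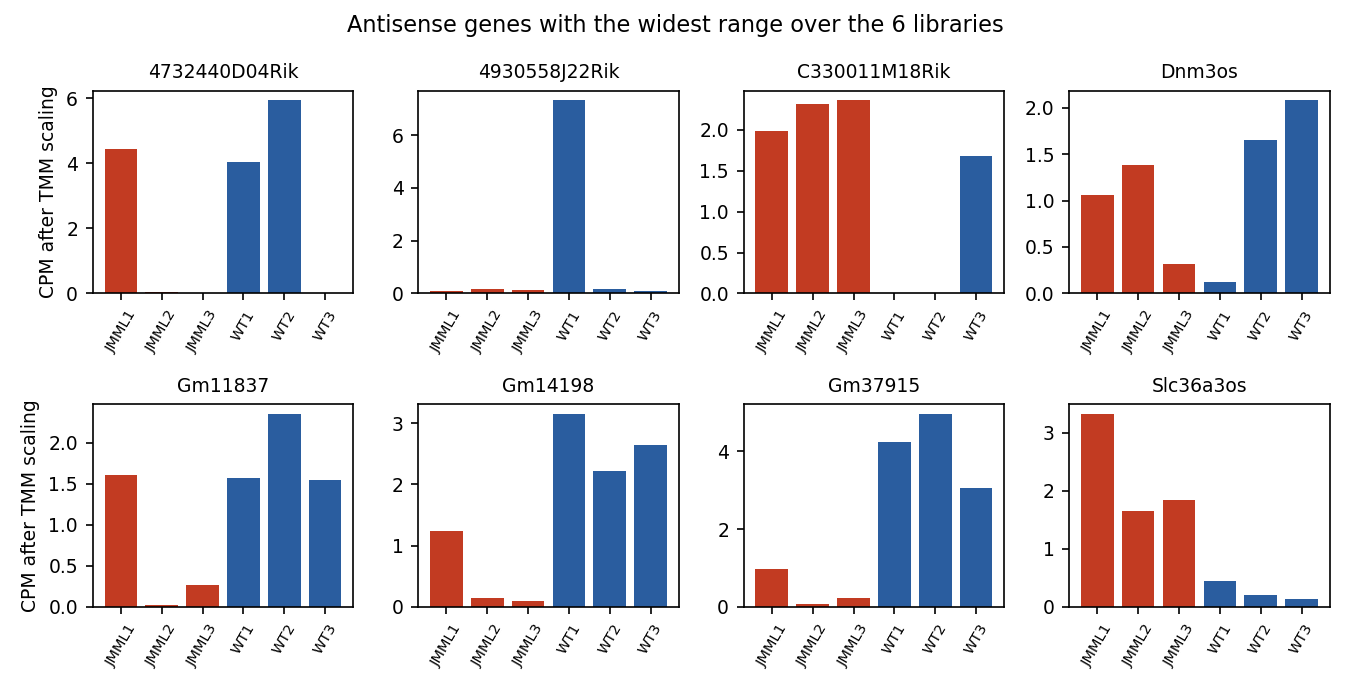
CPM of the 8 members with the widest range over libraries, with a bar for each library (JMML red, WT blue). 4732440D04Rik has high and low libraries in both groups, 4930558J22Rik is high in WT replicate 1 only, and C330011M18Rik has 2 WT libraries at 0 counts.

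The limit of 1 CPM divides genes of like levels. Just inside were A130051J06Rik (1.003 CPM), Gm15879 (1.006 CPM) and Gm12735 (1.034 CPM), and just outside were 9530082P21Rik (0.992 CPM), Map2k3os (0.962 CPM) and 6330403L08Rik (0.956 CPM). Strand-specific counting was examined with antisense genes whose exons lie at least 90% within those of a partner of 10 CPM or more. The 45 such genes had a median level per base of 0.168% of the partner's, with a maximum of 31.6%, and 17 had 0 counts in all 6 libraries. Because the treatment of reads in overlapping genes is not given, these values cannot show whether counting was strand-specific.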

How the data were processed

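Per the labels' protocols, RNA was made into libraries with a stranded, ribosome-depleting kit for total RNA. The authors deposited whole-number counts for each Ensembl gene, not normalized. The submitters' processing notes name the build GRCm38 and, without roles, STAR 2.5.3a, StringTie 1.3.3b, DESeq2 1.22.2, Picard 2.0.1, bcl2fastq 2.18.0.12 and R 3.5.0. Which tool counted, with which strand setting, and how it treated reads of overlapping genes is not given in the sources used here.

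Of 46078 identifiers, 45229 matched GENCODE vM21 and 849 did not. Each member's partner was the protein-coding gene on the other strand that shared most bases of its span. Counts of all genes were tested with edgeR 4.0.16 (R 4.3.3, filterByExpr by group, TMM scaling, quasi-likelihood F test, Benjamini-Hochberg adjustment over all genes tested, threshold 0.05). CPM printed per library are TMM-scaled, except those of the 1 CPM limit. The standard error was taken as the size of the log2 fold change over the root of the F statistic. The common biological coefficient of variation was 29.4%. The ratio test was adjusted over 345 pairs. Alternatives were DESeq2 1.42.0, limma 3.58.1 (voom for counts, log2 ratios for pairs), other scalings and filters, a replicate block, a covariate for the identifier letter, and libraries left out. Both models were checked on simulated counts with the same spread for every gene, below the common biological coefficient of variation of these data. That check therefore does not give the error rate in these data. All 113 members passed the filter.

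The members, lists and tests were chosen with earlier results of these data known. Named were up to 10 called members in each direction, the 8 members of highest level, up to 6 called ratios in each direction, members whose partner is in a marker list, and up to 8 symbols ending in "os", and the genes nearest the 1 CPM limit; 33 members resulted. Other members named in the text, among them Junos and those of wide range, were chosen after their values were seen. Promoter sequences are from RefSeq (GRCm38.p6).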

Additional observations from a re-analysis of the deposited data

How the results depend on the processing

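Over single-gene results and alternatives, 436 values kept direction and side of the threshold, 119 lost the call, 9 gained it and 12 changed sign. Of the 5 members called higher and 9 lower, library totals gave 3 and 20, a filter of 50 counts in 3 libraries 3 higher (12.9% of all genes), the identifier letter as a covariate 2 and 2, the 4 libraries with the letter M 1 higher, and DESeq2's Wald test 8 and 17 (15.1% and 16.9%). In the same fit (12.4% of all genes higher and 13.8% lower), a limit of 2 CPM (63 members) gave 4 higher and 4 lower, and one of 0.5 CPM (192 members) 7 and 16. Leaving out 1 library gave 2 to 5 higher and 2 to 14 lower. Called ratios, 3 higher and 6 lower, ranged over 0 to 3 and 1 to 6 without 1 library, where 0 came from edgeR with 6 to 9 at an unadjusted p under 0.05. limma on log2 ratios gave 9 and 13 with a pseudocount of 0.5 CPM and 6 and 11 with 0.1 CPM. Among the 79 pairs with overlapping exons 1 ratio was called higher and 5 lower, and among the 19 pairs without overlap 2 and 1. The same-sign share of 53.1% became 100% in the 1 pair with both genes called. The cause of these shifts was not tested. Same-numbered libraries did not deviate together (correlations of -0.162, 0.059 and -0.172), so the numbers were not taken to pair them, and the replicate block gave 2 higher and 7 lower (7.5% and 8.02% of all genes). Sign changed for Brip1os (-0.14 with library totals, -0.018 with the 50-count filter, -0.10 to 0.15 without 1 library), Rab10os (0.069 with no filter, -0.076 to 0.15 without 1 library), Gt(ROSA)26Sor (-0.11 with library totals, -0.094 with the letter, -0.058 among M libraries, -0.13 to 0.31 without 1 library) and Arhgap27os3 (0.033 with the letter, 0.072 among M libraries), none of them called. The median SE was 0.33 for members of 1 to 5 CPM and 0.21 for those of 5 CPM or more; the part of counting error in this was not tested.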

Other observations

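Genes of the imprinted domains around Kcnq1ot1 and Nespas, listed after the values of these 2 transcripts were seen, did not move as a block. Slc22a18, a transporter gene expressed from the maternal copy in the mouse, averaged 2.12 ± 0.714 CPM in JMML and 0.685 ± 0.163 CPM in WT (SD, n = 3 each), a log2 fold change of 1.62 ± 0.36 (adjusted p = 0.0182, edgeR). Osbpl5, which encodes an oxysterol-binding protein, averaged 2.38 ± 0.488 CPM in JMML and 5.30 ± 0.563 CPM in WT (SD, n = 3 each), with -1.16 ± 0.24 (adjusted p = 0.0135). Both had groups that did not overlap. Cdkn1c, a cell cycle inhibitor gene, averaged 2.29 ± 1.17 CPM in JMML and 4.09 ± 2.81 CPM in WT (SD, n = 3 each) and was not called (adjusted p = 0.315). Phlda2 had 0.83 ± 0.46 (adjusted p = 0.217). Ascl2, Cd81, Tssc4, Tspan32 and Nap1l4 also missed the threshold, and Trpm5 was too low to test.

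B930036N10Rik, opposite the mRNA export factor gene Alyref2, had 1.46, 9.02 and 1.07 CPM in JMML libraries and 1.54, 1.63 and 1.43 CPM in WT libraries. Its level rests on JMML replicate 2, and it was not called (1.33 ± 0.77, adjusted p = 0.232). Alyref2 averaged 7.33 ± 0.425 CPM in JMML and 4.56 ± 0.869 CPM in WT (SD, n = 3 each) and was called higher (0.69 ± 0.20, adjusted p = 0.0438).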
